A study of Mus musculus with 2 samples.

Results

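The genes that build and switch on the T cell receptor were examined in LSK cells, a stem and progenitor fraction of bone marrow sorted as lineage-negative, Sca-1-positive and c-Kit-positive. The set held 10 genes chosen by name: Cd3d, Cd3e, Cd3g, Cd4, Cd8a, Lck, Zap70, Bcl11b, Ptcra and Thy1. They were read by 16 probes in 34 spots on each array, out of 41170 probes in all, and were found through the gene name printed in both scanner files. No other probe matched these genes through an accession or a synonym. A gene entered by its name and by no threshold on a measured value, although earlier results of these data were known when the set was drawn up.

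Cells were sorted from the bone marrow of C57BL/6 mice that were wild-type on 1 array and PAD4-deficient (PAD4-/-) on the other. PAD4 is an enzyme that turns arginine into citrulline in histones and other proteins. The labels leave unstated how many mice gave each RNA, their age and sex, the deleted part of Padi4 and the antibodies of the lineage stain. With 1 array per group there was no replicate and no test between genotypes. Errors below are scanner errors of the spots and do not cover the spread between mice.

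T cells recognise antigen through a receptor whose 2 variable chains sit in the membrane with the CD3 chains, which carry the signalling tails. CD4 or CD8 binds the MHC molecule and brings the kinase LCK, which phosphorylates the CD3 and zeta chains, and ZAP-70 then docks on them and passes the signal on. In the thymus, Ptcra encodes the stand-in alpha chain of the pre-receptor, and Bcl11b is the transcription factor that closes off other fates during commitment. In bone marrow, Thy1 is carried by T cells and at low levels by stem cells, and CD4 and CD8 alpha are also found on some dendritic cells.

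RefSeq's table of build GRCm38.p6 held 11 start sites for 8 of the 10 genes, and the 250 bases before 5 of them are shown, 5′ to 3′ on the strand of the gene. Lck is shown because its single probe reads a gene with 2 start sites in the table, Cd8a because it differed most between the arrays, Cd3d because 1 array alone detected it, and Ptcra because neither did. Zap70, also read by a single probe, had several start sites in the table and is not shown. Capitals mark the motifs that were searched on both strands.
Lck, upstream start, chr4:129573642-129573891, minus strand: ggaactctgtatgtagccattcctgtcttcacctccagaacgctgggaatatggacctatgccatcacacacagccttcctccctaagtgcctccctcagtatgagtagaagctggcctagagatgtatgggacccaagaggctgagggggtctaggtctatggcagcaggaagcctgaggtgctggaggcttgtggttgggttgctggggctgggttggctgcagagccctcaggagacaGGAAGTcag
Lck, downstream start, chr4:129558373-129558622, minus strand: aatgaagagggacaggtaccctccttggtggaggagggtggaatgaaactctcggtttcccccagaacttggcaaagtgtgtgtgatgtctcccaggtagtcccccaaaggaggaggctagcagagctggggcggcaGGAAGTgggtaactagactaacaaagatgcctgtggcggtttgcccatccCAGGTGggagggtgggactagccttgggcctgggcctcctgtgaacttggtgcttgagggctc
Cd8a, chr6:71373177-71373426, plus strand: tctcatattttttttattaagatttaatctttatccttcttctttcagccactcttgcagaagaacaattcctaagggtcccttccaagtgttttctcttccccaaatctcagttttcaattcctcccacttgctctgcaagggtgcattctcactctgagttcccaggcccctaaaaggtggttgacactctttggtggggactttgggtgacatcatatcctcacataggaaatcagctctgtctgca
Cd3d, chr9:44981536-44981785, plus strand: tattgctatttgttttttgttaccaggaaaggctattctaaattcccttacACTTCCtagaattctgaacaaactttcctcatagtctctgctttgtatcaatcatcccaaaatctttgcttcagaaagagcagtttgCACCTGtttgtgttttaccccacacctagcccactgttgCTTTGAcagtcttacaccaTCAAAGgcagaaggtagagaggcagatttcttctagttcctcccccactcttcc
Ptcra, chr17:46763713-46763962, minus strand: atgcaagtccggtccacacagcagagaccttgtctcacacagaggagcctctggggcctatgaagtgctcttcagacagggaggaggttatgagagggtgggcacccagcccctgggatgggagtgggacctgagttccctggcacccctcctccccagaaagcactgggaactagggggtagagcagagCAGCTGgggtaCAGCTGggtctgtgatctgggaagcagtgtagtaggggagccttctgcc

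Windows of the same length before 32851 start sites gave the background. The E-box CAGCTG was held by 4271 of them, and the other E-box form, CACCTG, by 17.2%. The core of TCF and LEF sites, CTTTGA, was held by 13.8% of all windows. The ETS core searched, GGAAGT, was held by 19.7%. The GATA site, AGATAA, was found in 9.99% and the TATA box, TATAAA, in 12.4%. The upstream Lck window held GGAAGT 9 bases before the start, and the downstream window held CACCTG and GGAAGT 63 and 113 bases before it. CTTTGA occurred 73 and 54 bases before the Cd3d start, CACCTG 112 bases before it and GGAAGT, in its reverse form ACTTCC, 199 bases before it. CAGCTG occurred 60 and 49 bases before the Ptcra start, and the Cd8a window held none of these letters. No marked motif overlapped another. A match describes the letters only, since binding was not measured.

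Both arrays read the sorted cells alike by their own markers. Kit, the stem cell factor receptor, gave processed signals of 9339 (wild-type) and 9451 (PAD4-deficient), and Ly6a, which encodes Sca-1, gave 2637 and 2312. All 3 Padi4 probes read lower in PAD4-deficient cells, by log2 differences from -2.24 to -2.05. They were still detected there, with signals of 59.4, 1394 and 2670, against 254, 6813 and 12879 in wild-type cells. The arrays also differed in sex-linked RNA. Xist was detected in PAD4-deficient cells alone, at least 951-fold higher by its brightest probe, with signals of 3.93 and 16255. Ddx3y, a Y-linked gene, differed by -1.36 and was detected on both arrays, with 3455 and 1297. Genotype and this difference in sex-linked RNA cannot be told apart. Over the 17022 genes measured on both arrays the median log2 difference was 0.02.

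A probe counted as detected when Feature Extraction, the scanner software, called it well above background in most of its usable spots (at least 50%). The dimmest probe so called read 17.7 in wild-type and 18.5 in PAD4-deficient cells. Of the 16 probes, 7 were detected on both arrays, 3 on the PAD4-deficient array alone, none on the wild-type array alone and 6 on neither. Over all probes these shares were 62.0%, 2.12%, 1.90% and 34.0%. No member spot was saturated or marked as an outlier. Levels of different probes are not ranked, since each probe binds with its own strength.

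**Figure D1:**
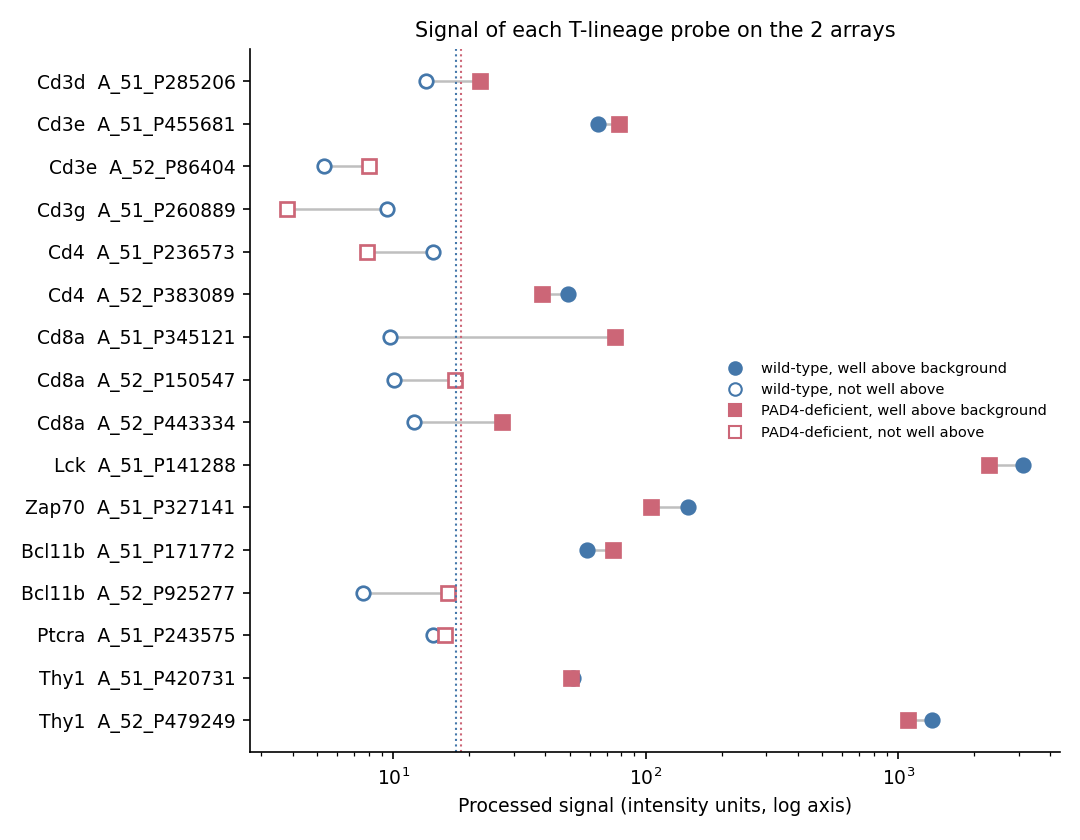
Processed signal (log axis) of the 16 probes on the wild-type array (circles) and the PAD4-deficient array (squares), filled where the probe was well above background; dotted lines are the lowest signal so called on each array (17.7 and 18.5). The Lck probe (3117 and 2288) lies far above the dotted lines on both arrays, and the pair joined by the longest line is the Cd8a probe with 9.74 and 75.5.

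Of 4 probes for the CD3 chains, the signalling part of the receptor, 1 was detected on both arrays. The single Cd3d probe (mm8 chr9:44737083-44737314) read 13.4 in wild-type cells, which was not well above background, and 22.0 in PAD4-deficient cells, where it was detected. This gave an at-least fold of 1.29, the bright reading over whichever was larger on the other array, the dim reading itself or that array's lowest detected signal, after scaling both. Detection of Cd3d on 1 array thus went with a small bound.

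Cd3e was detected on both arrays by its probe at mm8 chr9:44750166-44750225, with signals of 64.6 and 78.4. The log2 difference, PAD4-deficient minus wild-type after scaling, was 0.33 with an error of 0.23. Its other probe, at chr9:44754896-44754955, had 5.31 and 8.03 and was detected on neither array. The detected probe was thus higher on the PAD4-deficient array by a little more than its error. The Cd3g probe (chr9:44724628-44725212) had 9.44 and 3.79 and was detected on neither array. On the PAD4-deficient array 95 of 147 negative control spots were as bright or brighter than that, so no Cd3g signal was seen there, while on the wild-type array none of 151 was. Of the 3 chains, Cd3e alone had a difference measured on both arrays.

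Ptcra, the pre-receptor alpha chain, had signals of 14.3 and 16.0 at its single probe (mm8 chr17:46219187-46219247). Neither was well above background. Both were brighter than every negative control spot, the brightest of which had 8.06 and 6.09. The 2 Ptcra values lay within the error of 0.53 of each other on the log2 scale.

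Cd8a, the alpha chain of the CD8 coreceptor, was the member that differed most. All 3 of its probes were dim on the wild-type array and brighter on the PAD4-deficient array. The probe at mm8 chr6:71306845-71306904 read 9.74 and 75.5, so the PAD4-deficient reading was at least 4.42-fold higher. The probe at chr6:71308426-71308485 was printed in 10 spots and had mean signals of 12.0 and 27.1, at least 1.58-fold higher. Among all probes detected on the PAD4-deficient array alone, 42.3% had an at-least fold of 1.5 or more and 25.5% one of 2 or more; for the wild-type array alone the shares were 24.2% and 16.1%. The remaining probe, at chr6:71303400-71303459, had 10.1 and 17.5 and was detected on neither array. The probes thus shared a direction and differed widely in size.

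The 10 spots of the repeated Cd8a probe show how firm the dim reading was. Spot signals ran from 3.66 to 30.1 with a median of 12.99 on the wild-type array and from 22.1 to 38.8 (median 25.4) on the PAD4-deficient array. Only 1 of 10 spots was well above background on the first array, against 10 of 10 on the second. Compared at the same position, 9 of 10 spots were higher in PAD4-deficient cells, and the size of the difference has only the bound given above. The 2 ranges overlapped through the single bright wild-type spot. Spots of 1 array share its RNA, so they measure the scan and not the mice. Of the 245 probes printed in 10 spots, 41.2% had at least 90% of usable spots higher on the PAD4-deficient array, and among those not detected on both arrays 47.7% did. Detection on the PAD4-deficient array alone held for 6 of the 245 probes (2.45%) and on the wild-type array alone for 1 (0.408%).

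Cd4, the other coreceptor, did not follow Cd8a. Its probe at mm8 chr6:124833307-124833366 was also printed in 10 spots and was well above background in all of them on both arrays. Spot signals ran from 44.5 to 67.2 with a median of 47.4 on the wild-type array and from 28.1 to 54.2 with a median of 40.4 on the PAD4-deficient array. The ranges overlapped, and 7 of 10 spots were lower on the PAD4-deficient array. The mean log2 difference was -0.29 with a scanner error of 0.09, while the difference varied between spot positions with an SD of 0.38. With the deposited value table, which takes the median spot, it was -0.18, and with normexp background correction and an offset of 50 it was -0.07. A second Cd4 probe, at chr6:124831002-124831060, had 14.4 and 7.89 and was detected on neither array.

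**Figure D2:**
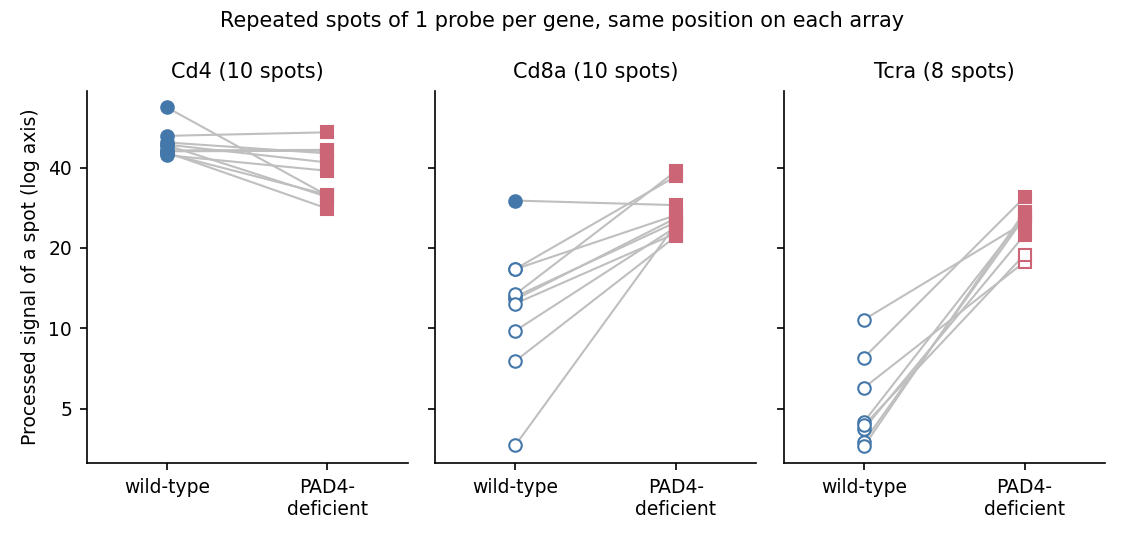
Processed signal (log axis) of each spot of the repeated Cd4, Cd8a and T cell receptor alpha (Tcra) probes on both arrays; a line joins the same position, and filled points are well above background. Cd4 spots overlap between arrays, whereas Cd8a is higher on the PAD4-deficient array in 9 of 10 positions and Tcra in 8 of 8. Of all 245 probes printed in 10 spots, 36.3% had every usable spot higher there.

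Both kinases of the set, Lck and Zap70, read lower on the PAD4-deficient array. Lck, the kinase that binds CD4 and CD8, had signals of 3117 and 2288 at its single probe (mm8 chr4:129050906-129050965), which differed by -0.40 (log2, error 0.20). Lck lies on chromosome 4, as does Padi4, and the probes of the 2 genes are 11.0 Mb apart. Zap70, the kinase that docks on the phosphorylated receptor, had 147 and 105 at its single probe (chr1:36725911-36725970), a difference of -0.43 with an error of 0.22. Both differences were about 2 errors wide and below 1.5-fold. Among 17022 genes measured on both arrays, 90% of differences lay between -0.39 and 0.44, so both kinases sat just past the lower edge of that range. Fyn, another kinase of T cell signalling, on the partner list and read in 10 spots, did not share the direction, with 0.00 (error 0.07).

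Bcl11b, the commitment factor, was higher at both of its probes. The probe at mm8 chr12:108363444-108363503 had signals of 58.4 and 74.0, which differed by 0.39 (log2, error 0.23). The probe listed under another transcript accession, at chr12:108358529-108358588, had 7.56 and 16.5 and was detected on neither array. Only the first of these is a measured difference, and it lay inside the range that holds 90% of genes.

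Thy1 is a T cell and a stem cell antigen, and it had 2 probes detected on both arrays. The probe at mm8 chr9:43799512-43799571 had signals of 1356 and 1089, which differed by -0.27 (log2, error 0.20). The probe at chr9:43797903-43798348 had 51.3 and 50.5, a difference of 0.03 with an error of 0.26. The second probe was level and the first was lower by little more than its error. Among 12 measured stem cell markers, none differed by 1.5-fold, and the median was 0.04. Procr, a surface receptor of stem cells, had -0.38, and Slamf1, a stem cell surface marker also found on T cells, had 0.47. Whether the Thy1 signal came from stem cells or from other cells was not tested. In sorted bulk RNA, fewer cells that carry a transcript and less of it per cell cannot be told apart.

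**Figure D3:**
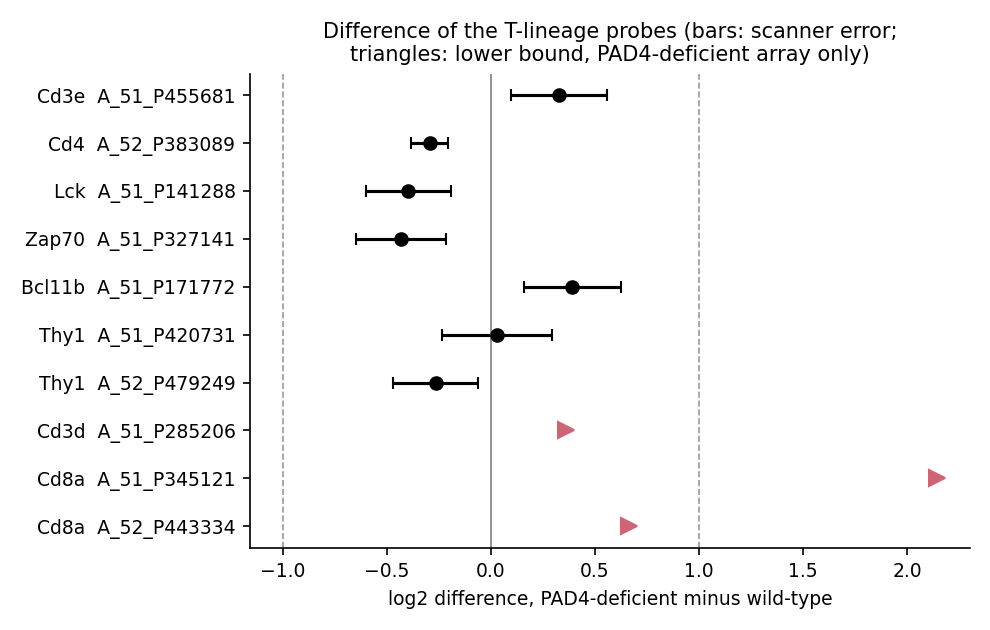
Log2 difference, PAD4-deficient minus wild-type, of the 7 probes detected on both arrays (points with scanner error) and the lower bound for the 3 detected on the PAD4-deficient array alone (triangles); dashed lines mark 2-fold. All 7 points lie within 2-fold, and 1 Cd8a bound lies past it.

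Across the set, none of the 7 probes measured on both arrays differed by 2-fold or by 1.5-fold. Over all probes so measured, 0.854% were at least 2-fold higher and 0.454% lower, and 2.49% and 2.08% passed 1.5-fold. A count of 0 among 7 probes is near what these shares give. By gene the shares past 2-fold were 1.01% (higher) and 0.476% (lower), and 4.75% passed 1.5-fold in either direction. By gene, 2 of 6 measured members were above 0 (Cd3e and Bcl11b) and 4 below (Lck, Zap70, Cd4 and Thy1), against 55.0% above 0 over all genes. Their median was -0.28, beside 0.02 over all genes. This median leaves out the 4 members that were not detected on both arrays: with genes detected on at least 1 array it was 0.03, so its sign rests on that filter. Only the Thy1 probe at 0.03 lay within 1 scanner error of 0, and 5 of the 7 lay within 2 errors.

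The partners of these genes in T cell signalling were lower more often than higher. Of 36 listed genes 32 were measured, with 11 above 0 and 21 below and a median of -0.11. Over all genes 55.0% were above 0. None was 1.5-fold higher, where the background over all genes was 2.88% higher and 1.87% lower. Lat, the adaptor that ZAP-70 phosphorylates, had -0.18 and Lcp2, the adaptor SLP-76, had 0.08. Several surface partners read lower on the PAD4-deficient array, within 1.5-fold at the brightest probe. Icos, a costimulatory receptor, had -0.39 (error 0.21) and -0.57 (error 0.21) at its other probe, and Cd5, an inhibitory receptor, had -0.34 (error 0.21). Cd28, a costimulatory receptor, had -0.25 (error 0.08) at a probe with 8 and 10 spots well above background. Its other probe had 0.08 (error 0.45). Cd247, the zeta chain, had -0.18 (error 0.21) at its brightest probe. Its other probes detected on both arrays had -0.47 (error 0.34) and -0.64 (error 0.31), and a dim one was detected on neither. Cd8b1, which pairs with CD8 alpha on T cells, had signals of 1740 and 1819 and a difference of 0.11, and its dim probe had 16.5 and 22.6, at least 1.32-fold higher. Txk, a tyrosine kinase of T cells, was detected on the PAD4-deficient array alone, at least 1.76-fold higher, and Cd2, Ctla4 and Themis were detected on neither.

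Of 3 measured receptor locus genes, 2 passed 1.5-fold upward in PAD4-deficient cells, beside 2.88% of all genes. The third was below 0, and the median was 0.68. A dim Tcra probe printed in 10 spots had 8 that were usable on both arrays. Their signals ran from 3.62 to 10.8 with a median of 4.40 on the wild-type array and from 17.7 to 30.9 with a median of 25.5 on the PAD4-deficient array. The ranges did not overlap, with 0 and 6 of 8 spots well above background. Of the 245 probes printed in 10 spots, 36.3% had every usable spot higher on the PAD4-deficient array and 21.2% had every one lower. On the log2 scale the at-least difference was 0.49, since the signals lay near the detection limit. The 2 other Tcra probes were detected on neither array. Tcrg-C was detected on the PAD4-deficient array alone, with 13.04 and 33.2 and an at-least fold of 1.94. Tcrg differed by 0.68 (error 0.30). Tcrb-V13 was read well above background on both arrays by its brightest probe, with 602 and 942, and differed by 0.70 (error 0.20), while Tcrb-J had -0.33 (error 0.24). Segments of these loci are near-identical families, so a probe may bind several of them.

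Taking the members, their partners and the receptor loci as 1 set of 103 probes, 8 were detected on the PAD4-deficient array alone (7.77%) and 1 on the wild-type array alone (0.971%). The shares over all probes were 2.12% and 1.90%. Among probes of other lists the share on the PAD4-deficient array alone was 0 of 47 for the T-lineage factors, 16.7% each for the B cell and dendritic cell lists and 11.1% for the macrophage list. It was 7.14% for the plasmacytoid list, 0 of 16 each for the NK and early lymphoid lists and 0 of 22 for the stem cell list. On the wild-type array alone the share was 11.1% for the dendritic cell list, 5.56% for the macrophage list and 0 for the B cell list. The 8 probes of the joined set belonged to Cd3d, Cd8a (2 probes), Cd8b1, Trat1, Txk, Tcra and Tcrg-C.

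Of 19 measured T-lineage factors, 3 were at least 1.5-fold higher and 1 was lower, beside 2.88% and 1.87% of all genes, with a median of 0.11. Lef1 and Tcf7, partner factors of the Wnt pathway that act early in the thymus, had 0.98 and 0.96, and Hes1, a Notch target, had -0.85. Gata3 had 0.32 and Notch1, read in 10 spots, had -0.22. Among 9 early lymphoid genes the median was 0.00, with Rag1 at 1.14, Ly6d at 0.71, and Flt3 and Ccr9 at -0.67 each.

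Markers of other blood cells, among them cells that can carry CD8 alpha or CD4 without being T cells, differed by list. Of the dendritic cell list, 6 of 9 measured genes passed 1.5-fold upward and none downward, beside 2.88% and 1.87% of all genes. The median was 0.67, and summed signals were 47343 (wild-type) and 49585 (PAD4-deficient). Plbd1 had 2.25 and Batf3, a factor of CD8-bearing dendritic cells, had 2.02. Clec9a, a defining receptor of those cells, was detected on the PAD4-deficient array alone, with 8.60 and 42.6 and an at-least fold of 2.49. Itgax, the general dendritic cell integrin, had 0.08. Wdfy4, which made up most of the summed signals with 40889 and 36326, had -0.12. Zbtb46, a dendritic cell factor, had probes that disagreed: 2 were detected on the wild-type array alone, at least 3.04-fold and 1.54-fold lower in PAD4-deficient cells, 1 on the PAD4-deficient array alone, at least 1.31-fold higher, and the brightest measured on both had 0.15. Of 7 NK and innate lymphoid genes 4 were 1.5-fold higher and 1 lower, with Il1rl1 at 1.69, Klrk1 at 1.33 and Prf1 at -0.60, while Ncr1, Eomes and Gzma were detected on neither array. Their summed signals were 17498 and 17013, of which Nkg7 alone gave 16948 and 16115. Such sums are unscaled and follow the brightest probes of a list, so they do not show how most of its genes differed.

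Of the B cell list, 6 of 11 genes passed 1.5-fold upward and none downward, beside 2.88% and 1.87% of all genes. The largest differences were Pax5 at 1.23 and Pou2af1 at 1.21 (list median 0.62, summed signals 17014 and 25735). All 8 measured macrophage and monocyte genes were above 0, beside 55.0% of all genes, with a median of 0.41 (summed signals 20089 and 24480). Of these, 2 passed 1.5-fold, Ccr2 at 1.48 and Mpeg1 at 1.36. Vsig4, a receptor of tissue macrophages, was detected on the PAD4-deficient array alone, with 14.6 and 261 and an at-least fold of 15.2, and so was Mertk (19.2 and 27.8). Of 7 plasmacytoid dendritic cell genes 3 were above 0 and 4 below (median -0.02), with Spib at 0.59 and Ccr9 at -0.67, and Siglech was detected on neither array (summed signals 30291 and 29592). The part of any of these cells in the Cd8a reading was not tested.

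**Figure D4:**
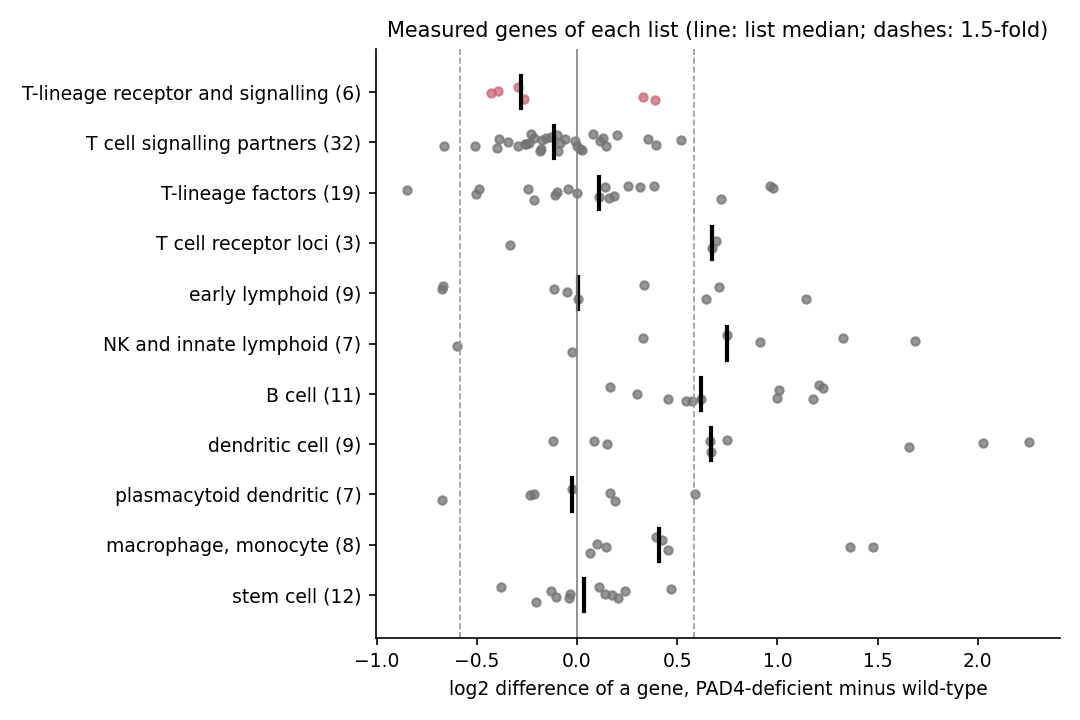
Log2 difference of each measured gene (brightest probe detected on both arrays) by list, with the number of measured genes in brackets; vertical bars are list medians and dashed lines 1.5-fold. Medians are -0.28 for the T-lineage set (0.03 with members detected on 1 array kept), -0.11 for its partners, 0.11 for T-lineage factors, 0.68 for the receptor loci, 0.67 for dendritic, 0.62 for B cell and 0.75 for NK genes.

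Dim members depended on how background was handled. The bound of the Cd8a probe at chr6:71306845-71306904 was 2.14 on the log2 scale. It was 1.59 with normexp and no offset and 0.76 with an offset of 50, which is added to each signal before the log. The Lck difference stayed between -0.45 and -0.38 throughout.

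**Figure D5:**
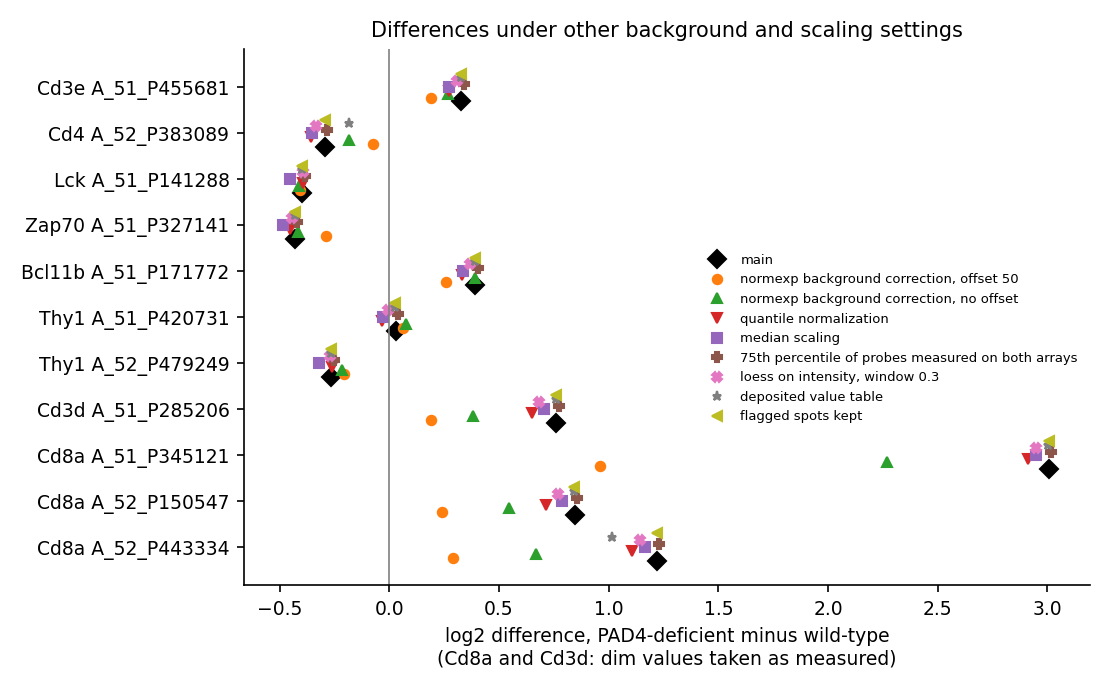
Log2 difference of the measured probes and of the dim Cd8a and Cd3d probes under the main setting (diamonds) and 8 alternatives. Points of Lck, Zap70 and Bcl11b keep their side of 0, and the dim Cd8a and Cd3d readings, drawn as measured although the wild-type values are not well above background, shrink with normexp.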

How the data were processed

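Total RNA from sorted LSK cells was labelled with Cy3 and read on 1-colour Agilent arrays of design 014868, per the labels' protocols and the file headers; probe coordinates are mm8. The deposited scanner files give spot intensity, background-subtracted and spatially detrended by Feature Extraction 9.5.3.1, with a spot error, flags and a p-value against background (version 9.5 per the submitters' processing notes). In the deposited value table the unit is log2: for 41174 probes it equals log2 of the median spot signal minus 9.67 (wild-type) or 9.62 (PAD4-deficient), so its scale, centring and direction were settled; column medians were -3.59 and -3.53.

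The value used was the mean log2 processed signal over unflagged spots of a probe, minus the array's 75th percentile (signals of 814 and 786). Gene values are those of the brightest probe detected on both arrays. Scanner errors were propagated over spots and arrays. Other genes were named through RefSeq's GRCm38.p6 table, by accession (24375 probes), symbol (6301), synonym (2426) or the file's name (8072). The named genes were every member with every probe, and up to 2 genes per list and direction past 1.5-fold; other list genes are examples chosen after their values were seen. The values of 1 listed gene are not reported here. Members and lists were chosen with earlier results of these data known. In data simulated for 25524 probes, 99 of 100 and 100 of 100 probes with a 3-fold change passed 2-fold, as did 17 of 25324 unchanged probes. The simulated noise was scanner error alone, without spread between mice or arrays, so these counts give no rate of false calls between genotypes. The alternatives were normexp with an offset of 50 or none (limma 3.58.1, R 4.3.3), quantile, median, detected-probe and loess scaling (window 0.3), the deposited table, looser filters, the mean over probes, a 1.5-fold threshold and flagged spots kept. Arrays give no depth, and their number (1 per group) limits the precision. Python 3.11.15, numpy 2.4.6, pandas 2.3.3, statsmodels 0.14.6 and matplotlib 3.10.9 were used.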

Additional observations from a re-analysis of the deposited data

How the results depend on the processing

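No paired analysis was possible because neither genotype had a second array, which also means that no replicate could be left out. Over 7 measured probes and 8 background or scaling alternatives, 53 of 56 differences moved by less than their scanner error. The other 3 were Cd4, at -0.07 with normexp and an offset of 50, -0.18 with normexp and no offset and -0.18 with the deposited value table. The Thy1 probe near 0 changed sign in 3 cases. The median of the measured members turned from -0.28 to 0.031 with genes detected on at least 1 array and moved to -0.030 with no filter on signal, as 8 and 10 genes then entered in place of 6. The count of probes at least 2-fold higher, 0 in the main setting, was 2 when detection on either array sufficed and 3 without any filter, and the count at least 2-fold lower became 1 with no filter. With an offset of 50 the at-least log2 differences of Cd8a fell to 0.76 from 2.14 and to 0.29 from 0.66; the offset shrinks dim differences by construction. Signal over background limits the dim members: 9 of 16 probes were not detected on both arrays.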

Other observations

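Among the 245 probes printed in 10 spots, those detected on the PAD4-deficient array alone read Cd8a, Tcra, Ifng, Cd40, Myod1 and Ncam1. Ifng, the cytokine of activated T and NK cells, had signals of 11.6 and 26.8, with 0 and 10 spots well above background. Cd40, a receptor of B cells and dendritic cells, had 15.5 and 30.02, with 1 and 10 spots well above background. Myod1, the muscle factor, had 13.4 and 20.4, with 0 and 6 spots well above background. Ncam1, an adhesion molecule, had 16.5 and 20.1, with 3 and 4 such spots. Slc2a4, a glucose transporter, was detected on the wild-type array alone, with 19.2 and 13.9 and 5 and 2 spots well above background. These genes were named after their values were seen.

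Probes of the same T cell gene did not always share a direction. Of 21 genes among the members, their partners and the receptor loci with 2 or more measured probes, 8 had probes on both sides of 0 (38.1%), beside 40.8% of 5878 genes over the whole array. Ets1, a factor of lymphoid cells, is on the list of T-lineage factors and is not among these 21 genes. It had -1.87 at a probe with signals of 161 and 42.6, and 0.16, -0.12 and -0.01 at its other probes.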
